A study of Mus musculus with 9 samples.

Results

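The ligands and receptors of the tumour necrosis factor (TNF) superfamily were followed across 3 populations of innate lymphocytes sorted from the epithelium of the mouse small intestine. Members were taken by name from the array annotation: every gene whose single symbol began with Tnfsf or Tnfrsf, and Tnf, Lta, Ltb, Ltbr, Fas, Fasl, Cd27, Cd40, Cd40lg, Cd70 and Ngfr. This gave 40 of the 19938 genes measured, 15 ligands and 25 receptors, each with 1 row of the table. The rule goes by name, but it was written with earlier results of these data known. All mice were NOD SCID, a strain without mature T and B cells, at 8 to 10 weeks of age, and every population was gated as CD3- and CD45+ with a purity above 98%. The populations were Ly49E+CD8aa+ (called double-positive cells here), Ly49E+CD8aa- (CD8aa- cells) and Ly49E-CD8aa+ (Ly49E- cells), each on 3 arrays labelled as biological replicates. Ly49E belongs to the Ly49 receptors of natural killer (NK) cells, and CD8aa consists of paired CD8 alpha chains. How many mice contributed to an array is not stated, so the p-values measure only the spread between these arrays, which may be technical.

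TNF superfamily ligands are mostly trimeric proteins of the cell surface, some of which are also shed, and each binds 1 or more receptors of the matching family. Receptors with a death domain can start apoptosis or inflammatory signalling, receptors without one bind TRAF adaptors and drive NF-kB and survival, and decoy receptors bind a ligand without passing on a signal. In the gut, lymphotoxins and LIGHT from lymphocytes act on epithelial and stromal cells, and costimulatory receptors such as 4-1BB and GITR set the activity of lymphocytes themselves.

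All values are log2 expression, and no call of detection was used. The 25th percentiles of the arrays lay between 4.4 and 4.47 and the medians between 5.76 and 5.82. The mean over the 9 arrays was below the lowest 25th percentile in 4 members (Cd40lg, Fas, Tnfsf18 and Cd70) and below the lowest median in 17. Exactly equal values on at least a pair of arrays occurred in 20 of the 40 members and in 60.5% of all genes, which makes some standard deviations (SD) very small. Klra5, which encodes Ly49E, read 5.47 to 7.31 in Ly49E- cells and 11.31 to 11.51 in the other two populations. Cd8a was also measured in CD8aa- cells, at 11.25 to 11.5 against 12.51 to 12.64 in the CD8aa+ populations. Of 10 sort and lineage markers, 4 passed as lower in CD8aa- than double-positive cells (Cd8a, Cd3e, Il2rb and Itgae, against 0.476% of all genes). The same 4 were lower than in Ly49E- cells (against 0.802%). Higher were 0 (against 1.22%) and 1, Klra5 (against 1.35%), in the same order. Within the CD3- gate, Cd3e read 10.35 to 11.23 in CD8aa- cells and 11.57 to 11.79 in the CD8aa+ populations. Cd3g read 12.7 to 12.97 over all arrays. Epithelial marker genes had list means per array of 8.0 to 8.47 in double-positive, 7.73 to 8.51 in CD8aa- and 7.79 to 8.5 in Ly49E- cells over 12 genes. In each population the highest of these means was that of replicate 1, at 8.47, 8.51 and 8.5 in the same order, against 7.73 to 8.1 on the other 6 arrays. Of the 12 genes, 0 passed the test in any comparison. Among all genes 1.70% passed for CD8aa- against double-positive cells, 2.15% for CD8aa- against Ly49E- cells and 0.130% between the CD8aa+ populations.

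Of the 40 members, 6 differed between populations, and all 6 set CD8aa- cells apart. The ligands Tnf, Ltb and Tnfsf14 and the receptors Tnfrsf26 and Tnfrsf21 were higher in CD8aa- cells than in either CD8aa+ population, by 2.11-fold to 9.5-fold, and the receptor Tnfrsf9 was lower. A gene was called by limma when its Benjamini-Hochberg adjusted p over all 19938 genes was under 0.05. Against double-positive cells, 6 of 40 members were called (15%, against 1.70% of all genes), 5 higher (12.5%, against 1.22%) and 1 lower (2.5%, against 0.476%). Against Ly49E- cells, 6 were called (15%, against 2.15% of all genes), 5 higher (12.5%, against 1.35%) and 1 lower (2.5%, against 0.802%). Both comparisons use the same CD8aa- arrays, so they are not independent of each other. By their gates, CD8aa- and double-positive cells differ in CD8aa, while CD8aa- and Ly49E- cells differ in both CD8aa and Ly49E. The F test over the 3 populations called 6 members (15%, against 2.03% of all genes). Among the 15 ligands 3 were higher in CD8aa- cells and 0 lower, and among the 25 receptors 2 were higher and 1 lower, in both comparisons. The median log2 difference over the 40 members was 0.02 against double-positive and 0.03 against Ly49E- cells, beside -0.03 and -0.02 over all genes.

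**Figure D1:**
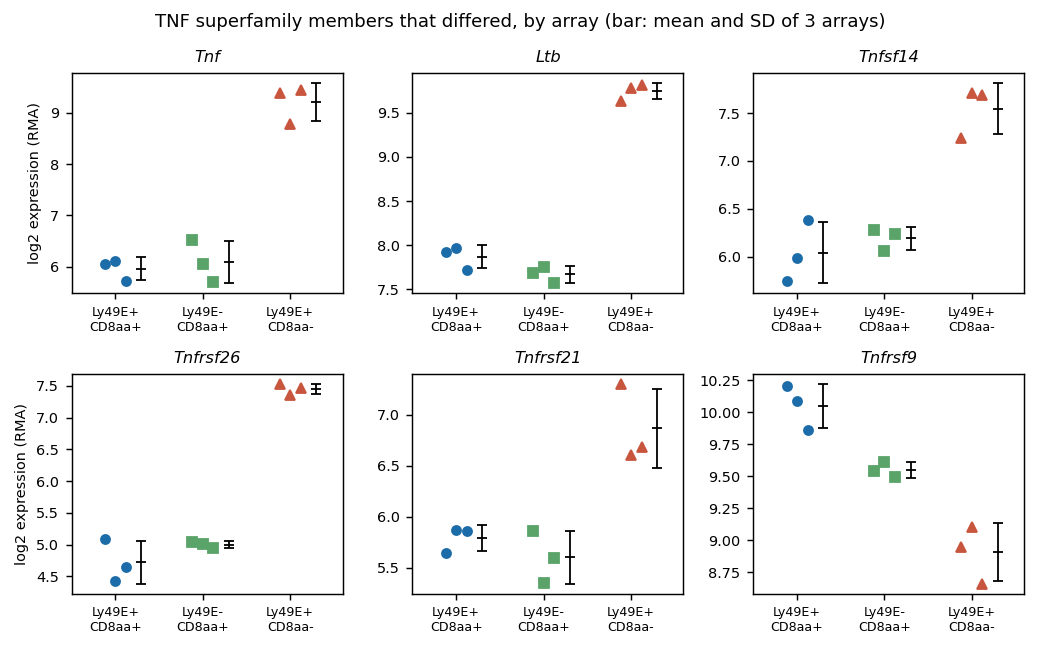
Log2 expression on each array for the 6 called members, with the mean and SD of 3 arrays as a bar beside the points. The 3 CD8aa- arrays (triangles) lie above all CD8aa+ arrays in 5 panels and below them for Tnfrsf9, where double-positive cells (circles) also lie above Ly49E- cells (squares).

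Tnf encodes the founding ligand of the family, an inflammatory cytokine that binds the receptors encoded by Tnfrsf1a and Tnfrsf1b. Its log2 values were 9.39, 8.78 and 9.45 in CD8aa- cells, 6.05, 6.12 and 5.71 in double-positive cells and 6.52, 6.05 and 5.69 in Ly49E- cells. Every CD8aa- array stood more than 2 log2 units above every CD8aa+ array, and the CD8aa+ populations overlapped. CD8aa- cells were higher by 3.25 (SE 0.235, limma adjusted p = 9.32e-05) than double-positive cells, a 9.5-fold difference, and by 3.12 (SE 0.235, limma adjusted p = 0.000112) than Ly49E- cells. In bulk RNA, more cells with the transcript and more transcript per cell cannot be told apart.

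Ltb encodes lymphotoxin beta, which joins lymphotoxin alpha in a membrane trimer that binds the lymphotoxin beta receptor. It read 9.64, 9.78 and 9.81 in CD8aa- cells, 7.92, 7.97 and 7.72 in double-positive cells and 7.69, 7.75 and 7.57 in Ly49E- cells. The spread within each population was small, with SDs of 0.0915, 0.13 and 0.0953 in the same order. CD8aa- cells were higher by 1.88 (SE 0.0885, limma adjusted p = 4.64e-06), or 3.67-fold, than double-positive cells and by 2.08 (SE 0.0885, limma adjusted p = 3.24e-06), or 4.21-fold, than Ly49E- cells. Lta, which encodes lymphotoxin alpha, read 5.93, 5.54 and 6.2 in CD8aa- cells, 5.37, 5.15 and 4.82 in double-positive cells and 5.01, 5.23 and 5.04 in Ly49E- cells. Its CD8aa- arrays were above all others too, but its differences of 0.78 (SE 0.178, limma adjusted p = 0.0807) and 0.8 (SE 0.178, limma adjusted p = 0.0644) did not pass. When CD8aa- replicate 2, the lowest of its 3, was left out, both passed (limma adjusted p = 0.0353 and 0.0273). With all arrays kept, the difference from Ly49E- cells also passed after a further quantile normalization (limma adjusted p = 0.0389) and after centring on array medians (0.0385). Over all alternatives the adjusted p of Lta ran from 0.0353 to 0.244 against double-positive cells and from 0.0273 to 0.201 against Ly49E- cells.

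Ltb, Tnf and Lta are direct neighbours in that order on chromosome 17 in the RefSeq annotation, with 0 other protein-coding genes between them. The rule for members used names only and not this shared position. RefSeq promoters of build GRCm38.p6, from 250 bases before to 50 bases after the start of the transcript, were at hand for 31 of the 40 members and were searched on both strands for the NF-kB motif, the AP-1 motif TGANTCA and the T-box motif TCACAC. The promoters of Tnf (chr17:35201958-35202257, reverse strand) and Ltb (chr17:35194257-35194556, forward strand) are shown because these neighbouring ligands were both higher in CD8aa- cells, and capitals mark matches.
Tnf: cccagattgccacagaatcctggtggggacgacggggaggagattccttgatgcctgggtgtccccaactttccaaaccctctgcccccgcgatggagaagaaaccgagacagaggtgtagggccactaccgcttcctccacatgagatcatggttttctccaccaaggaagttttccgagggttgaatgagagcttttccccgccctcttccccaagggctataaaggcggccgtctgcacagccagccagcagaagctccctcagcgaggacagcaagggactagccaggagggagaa
Ltb: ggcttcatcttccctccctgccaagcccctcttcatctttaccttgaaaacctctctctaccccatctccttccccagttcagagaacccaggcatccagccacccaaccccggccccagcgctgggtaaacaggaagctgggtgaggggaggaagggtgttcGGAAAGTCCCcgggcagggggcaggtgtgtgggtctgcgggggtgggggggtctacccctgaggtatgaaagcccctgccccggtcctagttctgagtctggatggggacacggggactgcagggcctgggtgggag
The Ltb promoter holds 1 match, to the NF-kB motif on the opposite strand, with its first base at -87 from the start. The Tnf promoter holds no match in this window. Among all 32851 promoters of the table, 8.46% hold the NF-kB motif, 7.81% the AP-1 motif and 14.5% the T-box motif. Of the 31 members, 4 hold the NF-kB motif (Ltb, Tnfrsf25, Tnfrsf8 and Tnfrsf9), 5 the AP-1 motif (Fas, Tnfrsf8, Tnfrsf9, Tnfsf13b and Tnfsf14) and 4 the T-box motif (Tnfrsf13c, Tnfrsf14, Tnfsf14 and Tnfsf15). A member was counted when any of its promoters held the motif, while the percentages above are per promoter. The counts and percentages are therefore unlike measures and were not compared. A match describes letters and does not show a site in use.

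Tnfsf14 encodes LIGHT, a ligand of the lymphotoxin beta receptor and of HVEM, the product of Tnfrsf14. Its values were 7.24, 7.71 and 7.69 in CD8aa- cells, 5.75, 5.99 and 6.38 in double-positive cells and 6.28, 6.06 and 6.24 in Ly49E- cells. The CD8aa- arrays stood clear of all others, while the CD8aa+ populations overlapped. CD8aa- cells were higher by 1.51 (SE 0.174, limma adjusted p = 0.00204), or 2.84-fold, than double-positive cells and by 1.35 (SE 0.174, limma adjusted p = 0.00339), or 2.55-fold, than Ly49E- cells. Its promoter in GRCm38.p6 (chr17:57194132-57194431, reverse strand) is shown for comparison with the other ligands that were higher. Capitals mark an AP-1 match at -160, which reads on both strands, and a T-box match on the opposite strand at -140.
Tnfsf14: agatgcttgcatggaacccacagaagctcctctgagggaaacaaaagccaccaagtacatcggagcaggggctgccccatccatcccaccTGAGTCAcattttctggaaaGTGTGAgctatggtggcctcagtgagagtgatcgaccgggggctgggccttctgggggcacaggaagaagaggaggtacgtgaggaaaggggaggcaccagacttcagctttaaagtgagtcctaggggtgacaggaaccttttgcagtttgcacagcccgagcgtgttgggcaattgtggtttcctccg
Tnfsf14 lies beside Cd70 and Tnfsf9 on chromosome 17. Tnfsf9, which encodes the ligand of 4-1BB, read 6.35, 6.13 and 6.02 in CD8aa- cells, 5.86, 5.44 and 5.87 in double-positive cells and 4.8, 5.89 and 5.76 in Ly49E- cells. Its CD8aa- arrays were above all others as well, but the differences of 0.44 (SE 0.261, limma adjusted p = 0.685) and 0.68 (SE 0.261, limma adjusted p = 0.382) did not pass. Replicate 1 of Ly49E- cells read far below its group. Neither difference passed in any alternative, leaving out that array among them (lowest limma adjusted p = 0.272 and 0.262). Cd70, which encodes the ligand of CD27, ran from 4.28 to 4.51 over the 9 arrays, near the 25th percentiles.

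**Figure D2:**
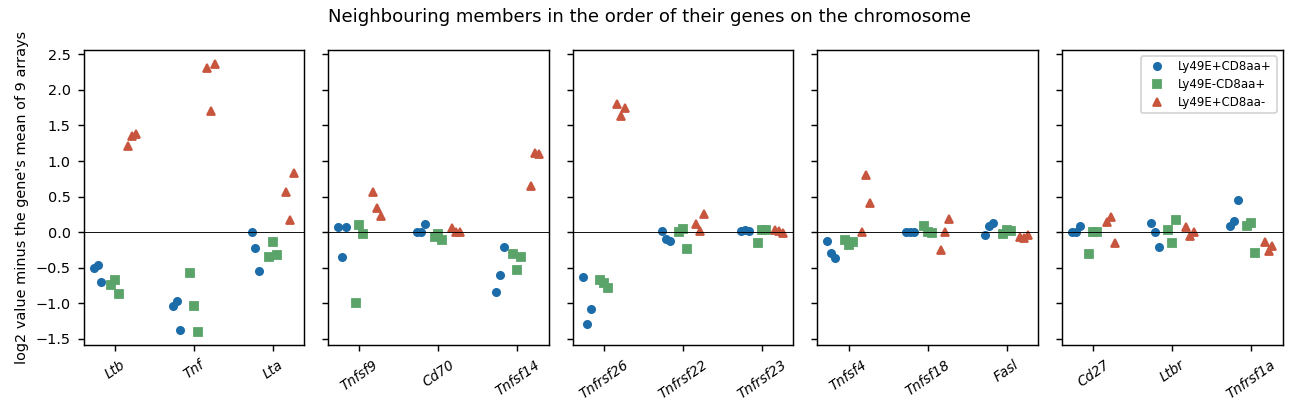
Log2 value on each array minus the mean of the gene over the 9 arrays, for 5 groups of members near each other on a chromosome, in the order of their genes. CD8aa- arrays (triangles) lie above all others for the 3 genes Ltb, Tnf and Lta, and for Tnfsf9 and Tnfsf14 but not for Cd70 between them. They also do for Tnfrsf26 but not for Tnfrsf22 or Tnfrsf23, and for Tnfsf4 but not for Tnfsf18 or Fasl. They do not for Cd27, Ltbr or Tnfrsf1a.

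The receptors of TNF, the lymphotoxins and LIGHT had no called difference. Tnfrsf1a, the widely expressed TNF receptor with a death domain, read 9.16, 9.03 and 9.1 in CD8aa- cells, 9.39, 9.45 and 9.74 in double-positive cells and 9.38, 9.43 and 9.01 in Ly49E- cells. The CD8aa- arrays lay below the double-positive ones, with a difference of -0.43 (SE 0.128, limma adjusted p = 0.218), and overlapped those of Ly49E- cells (-0.18 (SE 0.128, limma adjusted p = 0.717)). Tnfrsf1b, which encodes the TNF receptor of lymphocytes without a death domain, read 9.04, 9.09 and 9.11 in CD8aa- cells, 9.16, 9.31 and 9.21 in double-positive cells and 9.05, 9.2 and 9.2 in Ly49E- cells. Its 95% interval was -0.31 to 0.01 for CD8aa- minus double-positive cells and -0.23 to 0.09 for CD8aa- minus Ly49E- cells.

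Ltbr, which encodes the lymphotoxin beta receptor, read 6.69, 6.57 and 6.63 in CD8aa- cells, 6.75, 6.63 and 6.42 in double-positive cells and 6.66, 6.46 and 6.79 in Ly49E- cells. All 3 populations overlapped, with intervals of -0.21 to 0.27 and -0.25 to 0.23 in the same comparisons. Tnfrsf14, which encodes HVEM, read 9.08, 8.88 and 8.28 in CD8aa- cells, 8.76, 8.71 and 8.62 in double-positive cells and 8.71, 8.71 and 8.73 in Ly49E- cells. The CD8aa- arrays spread both above and below the CD8aa+ arrays, and the interval against double-positive cells was -0.34 to 0.43.

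The largest receptor difference was in Tnfrsf26, a member of a cluster of mouse receptor genes. Its values were 7.53, 7.36 and 7.47 in CD8aa- cells, 5.09, 4.43 and 4.65 in double-positive cells and 5.05, 5.0 and 4.94 in Ly49E- cells. The CD8aa- arrays stood more than 2 log2 units above every other array, by 2.73 (SE 0.145, limma adjusted p = 1.13e-05), or 6.63-fold, from double-positive cells and by 2.46 (SE 0.145, limma adjusted p = 2.49e-05), or 5.48-fold, from Ly49E- cells. Outside CD8aa- cells it read below the median of every array. On chromosome 7 it is followed directly by Tnfrsf22 and Tnfrsf23, which encode decoy receptors for TRAIL. Tnfrsf22 read 4.94 to 5.18 in CD8aa- cells and 4.7 to 4.97 in the CD8aa+ populations, with differences of 0.2 (SE 0.0953, limma adjusted p = 0.585) and 0.19 (SE 0.0953, limma adjusted p = 0.564) that did not pass. Tnfrsf23 ran from 4.55 to 4.74 over all arrays. These genes are related in sequence, and cross-hybridisation between their probes was not tested.

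Tnfrsf21 encodes DR6, a receptor with a death domain. It read 7.31, 6.61 and 6.69 in CD8aa- cells, 5.64, 5.87 and 5.86 in double-positive cells and 5.86, 5.34 and 5.6 in Ly49E- cells. The CD8aa- arrays lay above all others, with replicate 1 the highest. CD8aa- cells were higher by 1.08 (SE 0.192, limma adjusted p = 0.0241), or 2.11-fold, than double-positive cells and by 1.27 (SE 0.192, limma adjusted p = 0.00903), or 2.41-fold, than Ly49E- cells. The call against double-positive cells was lost when double-positive replicate 1, 2 or 3 was left out (limma adjusted p = 0.11, 0.0773 and 0.0819), when CD8aa- replicate 3 (0.0536) or Ly49E- replicate 3 (0.0515) was, and in the 6 arrays alone (0.0788). Its range over all alternatives was 0.0144 to 0.11. Against Ly49E- cells it was lost in the 6 arrays alone (limma adjusted p = 0.0634, range 0.00503 to 0.0634).

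Tnfrsf9, which encodes the costimulatory receptor 4-1BB (CD137), was the called member that was lower in CD8aa- cells. It read 8.95, 9.11 and 8.66 in CD8aa- cells, 10.2, 10.09 and 9.86 in double-positive cells and 9.54, 9.61 and 9.49 in Ly49E- cells. The populations did not overlap, with double-positive cells highest, Ly49E- cells between and CD8aa- cells lowest. The difference of CD8aa- cells was -1.15 (SE 0.124, limma adjusted p = 0.00136), or 2.21-fold, from double-positive cells and -0.65 (SE 0.124, limma adjusted p = 0.0302), or 1.56-fold, from Ly49E- cells. Double-positive cells were above Ly49E- cells by 0.5 (SE 0.124, limma adjusted p = 0.663), which did not pass. The call against Ly49E- cells was lost when double-positive replicate 2 was left out (limma adjusted p = 0.0579), when CD8aa- replicate 1 or 3 was (0.088 and 0.0775), when Ly49E- replicate 1, 2 or 3 was (0.0998, 0.118 and 0.0856), and in the 6 arrays alone (0.0751). Its range over all alternatives was 0.0117 to 0.118.

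RefSeq lists a pair of starts for Tnfrsf9. The promoter of the downstream one in GRCm38.p6 (chr4:150927749-150928048, forward strand) is shown because it holds both an NF-kB and an AP-1 match. Capitals mark an NF-kB match at -43, a second that overlaps it at -42 and reads on both strands, and an AP-1 match at -15, also on both strands. The upstream promoter holds no match, and neither does that of the called member Tnfrsf21. For the called member Tnfrsf26 no promoter was at hand, so none was searched. Whether any match bears on expression was not tested.
Tnfrsf9: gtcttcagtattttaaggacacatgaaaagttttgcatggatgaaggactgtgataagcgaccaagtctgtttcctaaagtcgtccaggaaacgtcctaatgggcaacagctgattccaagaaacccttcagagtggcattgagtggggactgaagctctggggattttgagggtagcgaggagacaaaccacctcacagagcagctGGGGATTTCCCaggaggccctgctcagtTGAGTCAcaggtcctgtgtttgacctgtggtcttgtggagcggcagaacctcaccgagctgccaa

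Ranks gave a wider view that needs no threshold on p. In 10 of the 40 members all 3 CD8aa- arrays lay above all 6 CD8aa+ arrays (25%, against 3.28% of all genes), and in 3 they lay below (7.5%, against 3.52%). The 10 were the ligands Tnf, Ltb, Lta, Tnfsf14, Tnfsf9, Tnfsf4 and Tnfsf11 and the receptors Tnfrsf26, Tnfrsf21 and Tnfrsf25. The 3 were Tnfrsf9, Tnfsf10 and Tnfsf13b. Taken by pairs of populations, CD8aa- arrays lay above all double-positive arrays in 10 members (25%, against 5.52% of all genes) and below them in 5 (12.5%, against 7.41%). They lay above all Ly49E- arrays in 13 (32.5%, against 5.29%) and below them in 5 (12.5%, against 7.45%).

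**Figure D3:**
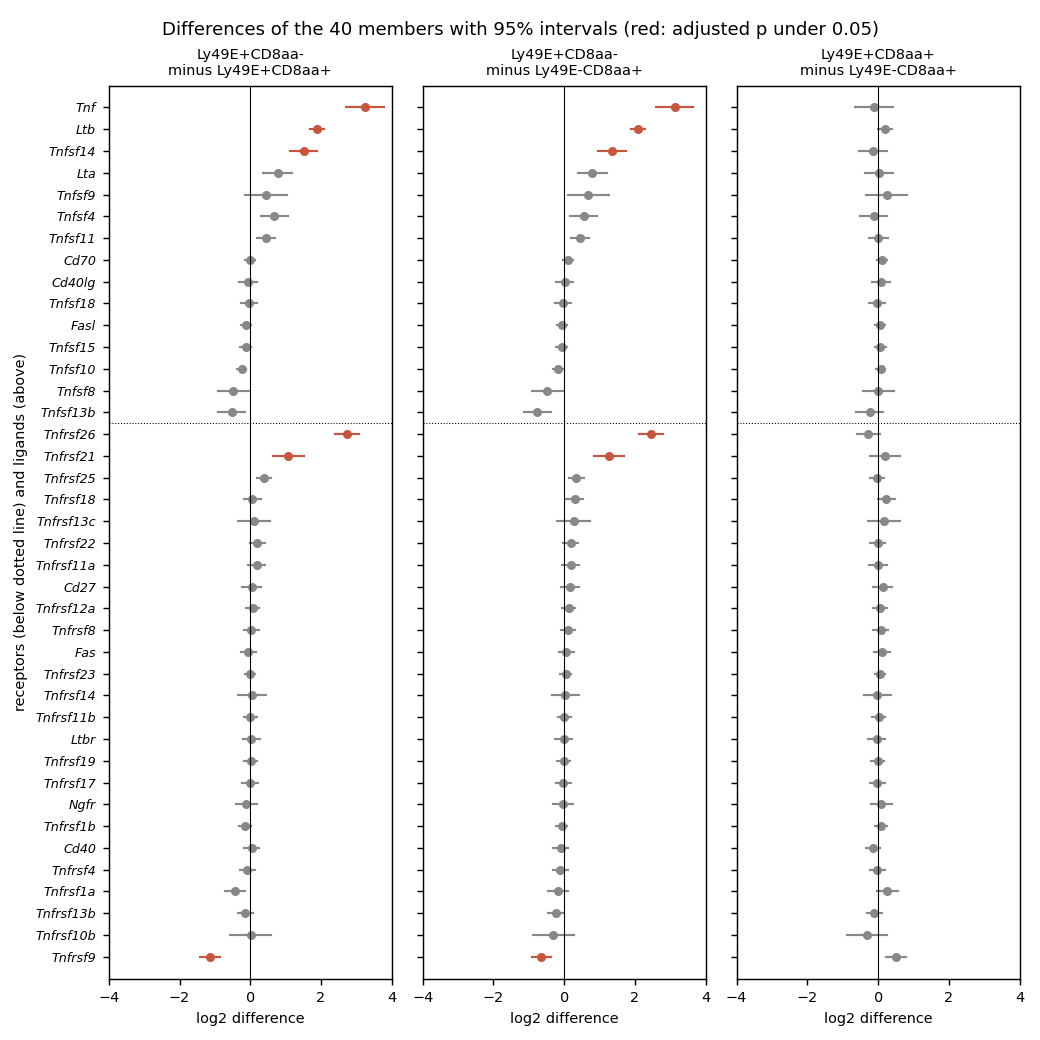
Log2 differences of the 40 members with 95% intervals in the 3 comparisons, ligands above and receptors below the dotted line, called members in red. Both comparisons of CD8aa- cells show 6 red members, 5 to the right of 0 and Tnfrsf9 to the left, and double-positive minus Ly49E- cells shows 0.

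The death ligands were measured well above the array medians in every population. Fasl, which encodes the ligand of Fas, read 10.99, 10.97 and 11.02 in CD8aa- cells, 11.02, 11.15 and 11.19 in double-positive cells and 11.03, 11.09 and 11.08 in Ly49E- cells. The arrays lay close together, and the 95% interval was -0.27 to 0.02 for CD8aa- minus double-positive cells. Tnfsf10, which encodes TRAIL, read 9.84, 9.73 and 9.73 in CD8aa- cells, 9.98, 10.04 and 10.02 in double-positive cells and 9.95, 9.96 and 9.93 in Ly49E- cells. The 3 populations did not overlap, but the steps were small, and the differences of -0.25 (SE 0.059, limma adjusted p = 0.0955) and -0.18 (SE 0.059, limma adjusted p = 0.267) did not pass. Fas read 3.87, 4.14 and 4.14 in CD8aa- cells, 4.28, 4.02 and 4.02 in double-positive cells and 4.02, 3.94 and 4.0 in Ly49E- cells, below the 25th percentile of every array. Tnfrsf10b, which encodes the mouse TRAIL receptor, read 5.04, 5.49 and 5.31 in CD8aa- cells, 5.33, 5.33 and 5.15 in double-positive cells and 5.31, 5.18 and 6.28 in Ly49E- cells. Replicate 3 of Ly49E- cells stood above the other 8 arrays, and no difference passed.

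Tnfsf4, which encodes the ligand of OX40, read 4.45, 5.24 and 4.86 in CD8aa- cells, 4.31, 4.14 and 4.08 in double-positive cells and 4.33, 4.26 and 4.31 in Ly49E- cells. The CD8aa- arrays were the highest and the most spread. The differences of 0.67 (SE 0.168, limma adjusted p = 0.117) and 0.55 (SE 0.168, limma adjusted p = 0.216) did not pass, but did when CD8aa- replicate 1, the lowest, was left out (limma adjusted p = 0.0131 and 0.0249). Over all alternatives the adjusted p reached 0.319 and 0.432. Tnfrsf4, which encodes OX40, read 5.43, 5.38 and 5.36 in CD8aa- cells, 5.59, 5.54 and 5.28 in double-positive cells and 5.62, 5.43 and 5.43 in Ly49E- cells, with overlap between double-positive cells and both other populations.

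Tnfrsf18, which encodes GITR, read 9.33, 8.97 and 8.97 in CD8aa- cells, 9.13, 8.97 and 9.0 in double-positive cells and 8.68, 8.88 and 8.83 in Ly49E- cells. Ly49E- cells were the lowest without overlap, but CD8aa- minus Ly49E- cells (0.29 (SE 0.109, limma adjusted p = 0.364)) and double-positive minus Ly49E- cells (0.23 (SE 0.109, limma adjusted p = 1)) did not pass. Tnfsf18, which encodes the GITR ligand, ran from 4.11 to 4.54. Cd27, a receptor of NK and T cells, read 9.02, 9.09 and 8.72 in CD8aa- cells, 8.88, 8.88 and 8.96 in double-positive cells and 8.57, 8.88 and 8.88 in Ly49E- cells. Its populations overlapped, with intervals of -0.23 to 0.3 for CD8aa- minus double-positive cells and -0.1 to 0.43 for CD8aa- minus Ly49E- cells.

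Tnfsf8, which encodes the ligand of CD30, read 7.54, 8.35 and 7.64 in CD8aa- cells, 8.31, 8.5 and 8.14 in double-positive cells and 8.22, 8.37 and 8.37 in Ly49E- cells. A single CD8aa- array, replicate 2, lay among the CD8aa+ arrays. The differences of -0.47 (SE 0.192, limma adjusted p = 0.46) and -0.48 (SE 0.192, limma adjusted p = 0.423) did not pass, but did when that array was left out (limma adjusted p = 0.0231 and 0.0195), while the adjusted p over all alternatives reached 0.792 and 0.752. Tnfrsf8, which encodes CD30, ran from 4.57 to 4.9. Cd40lg, the CD40 ligand known from helper T cells, ran from 3.38 to 3.81, and Cd40 from 6.06 to 6.49.

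**Figure D4:**
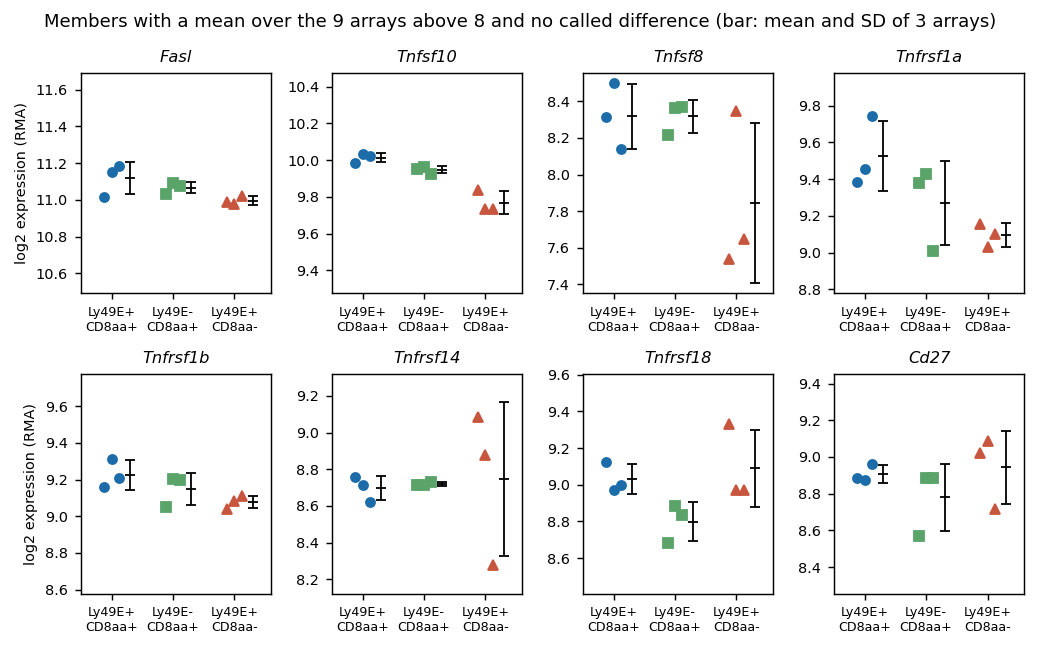
Log2 expression on each array for the 8 members with a mean above 8 over the 9 arrays and no called difference, with the mean and SD of 3 arrays as a bar. Tnfsf10 falls in 3 tiers that differ by little, and in Tnfsf8, Tnfrsf14 and Cd27 the CD8aa- arrays (triangles) spread more widely than the double-positive arrays (circles).

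Tnfsf11 encodes RANKL, a ligand known from osteoclast formation and lymph node development. It read 7.33, 7.51 and 7.25 in CD8aa- cells, 6.7, 7.04 and 7.04 in double-positive cells and 7.04, 6.8 and 6.94 in Ly49E- cells. CD8aa- arrays were above all others, but the differences of 0.44 (SE 0.116, limma adjusted p = 0.146) and 0.44 (SE 0.116, limma adjusted p = 0.131) did not pass. Tnfrsf11a, which encodes RANK, ran from 5.2 to 5.76, and Tnfrsf11b, which encodes the decoy osteoprotegerin, from 5.06 to 5.3. Tnfrsf25 encodes DR3, the death domain receptor of TL1A, and read 5.37, 5.46 and 5.7 in CD8aa- cells, 5.1, 5.15 and 5.14 in double-positive cells and 5.21, 5.21 and 5.08 in Ly49E- cells. Its differences of 0.38 (SE 0.0886, limma adjusted p = 0.0874) and 0.34 (SE 0.0886, limma adjusted p = 0.119) did not pass, but did after a further quantile normalization (limma adjusted p = 0.0341 and 0.0411), with values up to 0.237 and 0.28 over all alternatives. Tnfsf15, which encodes TL1A, ran from 5.87 to 6.14.

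Tnfsf13b encodes BAFF, a survival factor of B cells, and read 5.52, 4.99 and 5.55 in CD8aa- cells, 5.87, 5.82 and 5.95 in double-positive cells and 6.31, 6.24 and 5.82 in Ly49E- cells. CD8aa- cells were the lowest, but the differences of -0.52 (SE 0.169, limma adjusted p = 0.296) and -0.77 (SE 0.169, limma adjusted p = 0.0614) did not pass. When Ly49E- replicate 3 was left out the latter passed (limma adjusted p = 0.036, with a range of 0.036 to 0.218 over all alternatives). Of dendritic cell markers, 15 of 15 were measured, with list means of 6.64 to 6.92 in Ly49E- cells against 6.15 to 6.23 in CD8aa- and 6.1 to 6.18 in double-positive cells. Of the 15, 5 were called lower in CD8aa- than in Ly49E- cells (Siglech, Ly6d, Cd209a, Cd209d and Clec9a, against 0.802% of all genes). Against the same cells 1 was called higher (Batf3, against 1.35%). In double-positive cells 3 were called lower than in Ly49E- cells (Siglech, Ly6d and Cd209d, against 0.110%) and 0 higher (against 0.0201%). Of 7 B cell markers measured, 1 (Blnk) was called lower than in Ly49E- cells in both other populations, and 0 higher. The part of either list in the values of Tnfsf13b was not tested.

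Among the BAFF receptor genes, Tnfrsf13c read 7.65, 8.12 and 7.34 in CD8aa- cells, 7.93, 7.41 and 7.45 in double-positive cells and 7.61, 7.34 and 7.35 in Ly49E- cells, with CD8aa- replicate 2 the highest and all populations overlapping. Tnfrsf13b ran from 6.36 to 6.87 and Tnfrsf17 from 4.59 to 4.98. The remaining receptors were Ngfr, the neurotrophin receptor (6.11 to 6.65), Tnfrsf12a, the TWEAK receptor (6.34 to 6.57), and Tnfrsf19 (5.04 to 5.35), and none of these passed by limma. A row that the annotation gives to Tnfsf12 and Tnfsf13 together has no single symbol and was not tested.

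By their gates, the CD8aa+ populations differ in Ly49E, and some dendritic cell markers differed between them as well. Between them, 0 of 40 members were called by limma (against 0.130% of all genes, 0.0201% higher and 0.110% lower in double-positive cells). An unadjusted p under 0.05 was reached by 2, Tnfrsf9 and Ltb (5%, against 4.18% of all genes). Double-positive arrays lay above all Ly49E- arrays in 4 members (Tnfrsf9, Tnfrsf18, Tnfsf10 and Cd70; 10%, against 2.88% of all genes) and below them in 0 (against 3.38%). Ltb differed by 0.2 (SE 0.0885, 95% interval 0.0 to 0.4). The intervals of double-positive minus Ly49E- cells were -0.66 to 0.4 for Tnf, -0.55 to 0.24 for Tnfsf14, -0.6 to 0.05 for Tnfrsf26 and -0.24 to 0.62 for Tnfrsf21.

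Genes of TNF receptor signalling were described from a list that also holds Adam17, which is not downstream of the receptors. The list has 40 genes, of which 36 were measured. Of these, 3 were higher (against 1.22% of all genes) and 0 lower in CD8aa- than in double-positive cells, and 4 were higher (against 1.35%) and 0 lower than in Ly49E- cells. The median difference of the 36 was 0.07 and 0.01, beside -0.03 and -0.02 over all genes. Nfkbia encodes an NF-kB inhibitor that NF-kB itself induces. It read 9.88, 9.68 and 9.51 in CD8aa- cells, 8.83, 8.12 and 8.38 in double-positive cells and 8.78, 8.43 and 8.48 in Ly49E- cells, and was higher in CD8aa- cells by 1.24 (SE 0.179, limma adjusted p = 0.00742) and 1.12 (SE 0.179, limma adjusted p = 0.012). The call against Ly49E- cells was lost when CD8aa- replicate 1 (limma adjusted p = 0.0555) or Ly49E- replicate 2 or 3 (0.0587 and 0.0574) was left out, in a range of 0.00171 to 0.0587 over all alternatives. Traf1, which encodes an adaptor of receptors without a death domain, read 9.56, 9.43 and 9.65 in CD8aa- cells, 8.99, 9.04 and 9.0 in double-positive cells and 8.97, 8.98 and 8.77 in Ly49E- cells, and was higher by 0.54 (SE 0.0817, limma adjusted p = 0.01) and 0.64 (SE 0.0817, limma adjusted p = 0.00334).

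Tab2, which encodes a link between TRAF adaptors and the kinase TAK1, read 10.89, 11.02 and 10.98 in CD8aa- cells, 10.57, 10.59 and 10.5 in double-positive cells and 10.58, 10.58 and 10.64 in Ly49E- cells, and was higher by 0.41 (SE 0.0627, limma adjusted p = 0.01) and 0.36 (SE 0.0627, limma adjusted p = 0.0174). The call against Ly49E- cells was lost when CD8aa- replicate 2 or 3 (limma adjusted p = 0.0729 and 0.07) or Ly49E- replicate 1 or 2 (0.0559 and 0.0699) was left out, and in the 6 arrays alone (0.056), in a range of 0.00638 to 0.0729. Nfkb2, which encodes the precursor of an NF-kB subunit, read 8.19, 8.06 and 7.95 in CD8aa- cells, 7.83, 7.64 and 7.65 in double-positive cells and 7.64, 7.58 and 7.72 in Ly49E- cells. It passed against Ly49E- cells (0.42 (SE 0.0851, limma adjusted p = 0.0384)) and not against double-positive cells (0.36 (SE 0.0851, limma adjusted p = 0.0871)). With the replicate block it did not pass against Ly49E- cells either (limma adjusted p = 0.0503, with a range of 0.0339 to 0.143 over all alternatives). The 4 genes called against Ly49E- cells became 2, 2 and 3 when CD8aa- replicate 1, 2 or 3 was left out, 2, 1 and 2 when Ly49E- replicate 1, 2 or 3 was, and 4, 3 and 3 when double-positive replicate 1, 2 or 3 was. Traf1 passed in every alternative run, with adjusted p up to 0.0491 and 0.0287.

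**Figure D5:**
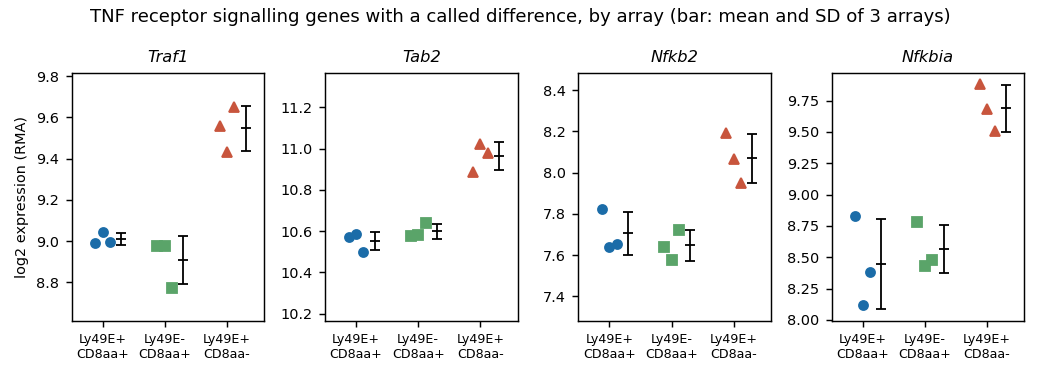
Log2 expression on each array for the 4 signalling genes called in at least 1 comparison, with the mean and SD of 3 arrays as a bar. In all 4 panels the CD8aa- arrays (triangles) lie above all 6 CD8aa+ arrays.

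Some immediate early and stress genes were higher in the same population. Of 20 measured, 4 were called higher (Nr4a1, Gadd45b, Fosb and Zfp36; against 1.22% of all genes) and 0 lower in CD8aa- than in double-positive cells. Against Ly49E- cells 5 were called higher (Nr4a1, Gadd45b, Dusp1, Zfp36 and Jun; against 1.35%) and 0 lower. The others did not pass, and 5 of the 20 had a mean below that of double-positive cells (Egr1, Egr2, Egr3, Ier3 and Nr4a2). Their list means were 8.65 to 8.82 in CD8aa-, 8.08 to 8.31 in double-positive and 8.02 to 8.26 in Ly49E- cells, and their part in the levels of Tnf, Ltb, Tnfsf14 and Nfkbia was not tested. Macrophage and monocyte markers, of cells that also make Tnf, had list means of 4.83 to 4.94 in CD8aa-, 4.96 to 5.02 in double-positive and 5.07 to 5.35 in Ly49E- cells. Of 12 measured, 0 were called higher in CD8aa- cells than in double-positive cells (against 1.22% of all genes) or Ly49E- cells (against 1.35%). Against Ly49E- cells 1 was called lower (Cybb, against 0.802%), and against double-positive cells 0 were (against 0.476%). Mast cell and granulocyte markers had list means of 4.35 to 4.59 in CD8aa-, 4.38 to 4.58 in double-positive and 4.29 to 4.53 in Ly49E- cells. Of 10 measured, 0 were called in CD8aa- against double-positive cells (1.70% of all genes) or against Ly49E- cells (2.15%). The part of any of these cells in the levels of Tnf was not tested.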

How the data were processed

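RNA of each sorted population was amplified with the Ovation Pico WTA V2 kit and hybridised to single-channel Affymetrix Mouse Gene 1.0 ST arrays, per the labels. The authors deposited log2 values made with RMA, as the submitters' processing notes name it, 1 for each row and array (1.84 to 13.8). No source used here gives the RMA version, genome build, slides or scan dates. Of 35556 rows, 21789 had 1 symbol in the platform annotation, and the one with the highest mean stood for each of 19938 genes. Population means were fitted to all 9 arrays with limma 3.58.1 (R 4.3.3), without a filter, with 2-sided moderated tests adjusted over all genes. The prior degrees of freedom were 3.08 and the residual ones 6. Intervals are 95% model intervals, unadjusted. The number of arrays limits precision, with a median SE of 0.0976.

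Values on every array are given for the called members, a fixed set of ligands and receptors, and the 3 largest remaining differences per comparison. Members and lists were chosen with earlier results of these data known. Alternatives were filters on dim rows, further normalization, other variance models, other rows for a gene, the replicate block, a minimum difference, the 6 arrays of a comparison and leaving out each array.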

Additional observations from a re-analysis of the deposited data

How the results depend on the processing

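The 6 members that differed over the populations became 5 to 8 over the alternatives. The 5 members higher in CD8aa- cells became 4 to 6 against double-positive cells and 4 to 7 against Ly49E- cells. The 1 member lower than in double-positive cells became 1 to 2 on leaving out an array, with 2 when CD8aa- replicate 2 was left out. The 1 member lower than in Ly49E- cells became 0 in the 6 arrays alone, 0 with a log2 difference of at least 1 required, and 0 to 2 on leaving out an array. The 4 signalling genes called between CD8aa- and Ly49E- cells became 1 to 4 on leaving out an array.

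With the replicate block the counts of members were again 6 over the populations, 5 higher and 1 lower in CD8aa- cells in each comparison and 0 between the CD8aa+ populations, and the signalling counts were 3 for CD8aa- against double-positive cells, 3 against Ly49E- cells and 0 between the CD8aa+ populations. The block ended 1 call among the named differences, that of Nfkb2. The deviations of the 3 replicate 1 arrays from their population means correlated by 0.127 to 0.222 with each other. In addition, 8 of 12 epithelial genes were highest on replicate 1 in every population, so these arrays share a signal. Their correlations with other numbers were -0.169 to -0.022. Deviations cancel out within a population, so these negative values follow from the positive ones and add no separate support. The 6 same-numbered pairs of replicates 2 and 3 correlated by -0.063 to 0.123, above 0.1 in 1, and 3 of 9 arrays correlated best with their own number in both other populations. The labels do not say what a number marks, and not every pair is above 0.1, so the fit without the block was kept. Of 1623 alternative values of 87 named differences, 43 had another call, and 0 called differences changed sign. The filter at the 25th percentile left out 5 members and that at the median 18, and no fit under it gives those a value.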
